A study of Danio rerio with 30 samples.

Results

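Heads of control zebrafish were compared between 20 and 15 days post fertilisation (dpf), with 3 arrays at 20 dpf set against 3 arrays at 15 dpf. These 6 arrays were chosen by the treatment and age in the sample labels out of 30 in the study. Each array held RNA from 1 pool of 5 AB strain heads, cut off in front of the gills, so that brain, eyes, jaw, skin and head muscle were read together. All 6 pools came from embryos injected before the 4-cell stage with a standard control morpholino, an antisense oligonucleotide directed at human beta-globin. The injection mix also held phenol red and mRNA of nCerulean, a nuclear fluorescent protein used to pick injected embryos, so the controls are injected fish and not untouched ones. The comparison asks which transcripts of the head changed over 5 days of late larval life in the absence of the study's knockdown. That knockdown, a splice-blocking morpholino against grb10a given with the same tracers, supplied 3 arrays at 20 dpf and 3 at 15 dpf against which the control step was tested, and grb10a encodes an adaptor of the receptors for insulin and insulin-like growth factors (IGF). The labels name more than 1 such morpholino, and which of them these fish received is not certain. Whether the knockdown still held at 15 and 20 dpf was not tested here. Fish were kept on a light and dark cycle and moved from powdered food with rotifers to powdered food with brine shrimp. The sources used here do not give the age of that change, the time since the last meal or the time of day at sampling.

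Late larvae approach metamorphosis, when larval tissues give way to juvenile ones: bone and teeth are laid down, embryonic globins are replaced, the thymus fills with lymphocytes, and skin and muscle are remodelled. The retina and the lens keep whole families of duplicated genes, and single copies of an opsin or a crystallin are used at different ages. Growth rate is read from other genes, since ribosome assembly, sterol synthesis, protein folding and DNA replication are raised by insulin and TOR signalling in fed animals, whereas FoxO targets rise when nutrients are short.

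Of 19260 genes, 2384 (12.4%) passed the test in the control step, and 1607 of them (8.34%) were higher and 777 (4.03%) lower at 20 dpf (limma, Benjamini-Hochberg adjusted p under 0.05). Rises of 2-fold or more numbered 115 and falls of that size 50, and 11 rises and 7 falls reached 4-fold. The arrays of the 2 ages did not overlap for 5831 genes (30.3%). The 15 largest rises and falls named below were taken only from such genes, so their lack of overlap was set by that choice. Over all genes the median difference was 0.05 on the log2 scale. The split between rises and falls depended on the scaling: centring each array on its median gave 2423 rises and 484 falls with a median of 0.13, and testing every probe set, named or not, gave 2046 rises and 2758 falls with a median of -0.06. Over all genes, replicate arrays correlated at 0.985 or above at 20 dpf and 0.971 or above at 15 dpf, and the median SD between replicates was 0.128 at 20 dpf and 0.189 at 15 dpf. The count of calls was 1289 without 20 dpf replicate 1, 1380 without 20 dpf replicate 3, 1416 without 15 dpf replicate 1, and 996 when the spread was taken from these 6 arrays alone. Values below are log2 signals of replicates 1 to 3, and differences are 20 minus 15 dpf on that scale. Each p is from limma and adjusted over all genes. It sets a difference against the spread between pools within all 10 groups of the study, knockdown included. A group mean under 6.06, which marks off the dimmest genes, may lie at background, which was not measured. A difference that rests on such a mean may therefore be a lower limit, also where this is not repeated below. Tissue markers were present, with list means at 20 dpf of 8.32 to 8.462 for cones, 6.61 to 7.13 for lens and 7.81 to 7.91 for muscle, against 8.15 to 8.44, 6.98 to 7.27 and 7.42 to 7.63 at 15 dpf. The RNA of whole heads was read, so fewer cells of a type and less RNA per cell cannot be told apart.

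The eye held the largest rise among the named genes. opn1mw3, a green cone opsin, measured 8.02, 7.91 and 8.14 in the 20 dpf pools, against 4.45, 4.24 and 4.81 in the 15 dpf pools. The arrays were far apart, with a difference of 3.52 (SE 0.32, adjusted p = 7.68e-08), and its control means at 5, 10 and 30 dpf were 3.70, 3.54 and 7.85. The neighbouring green opsin opn1mw4 measured 6.91, 6.51 and 7.45 in the 20 dpf pools, against 4.97, 3.96 and 3.62 in the 15 dpf pools. It rose by 2.77 (SE 0.27, adjusted p = 4.2e-07), again with no overlap. The red cone opsin opn1lw1 had 9.60, 9.20 and 9.67 in the 20 dpf pools, against 6.95, 7.63 and 7.68 in the 15 dpf pools. That was a 4.2-fold rise, 2.07 (SE 0.25, adjusted p = 7.55e-06), with the lowest array in 15 dpf replicate 1. The other members of the same families gave 0.53 (SE 0.31, adjusted p = 0.287) for opn1mw1 and -0.10 (SE 0.23, adjusted p = 0.82) for opn1lw2, and neither passed the test. The ultraviolet opsin opn1sw1 measured 12.07 ± 0.06 at 20 dpf, against 12.40 ± 0.10 at 15 dpf and fell by 0.33 (SE 0.10, adjusted p = 0.0246), and the blue opsin opn1sw2 measured 10.84 ± 0.06 at 20 dpf, against 11.32 ± 0.13 at 15 dpf and fell by 0.48 (SE 0.15, adjusted p = 0.0378). Neither of these falls was called without 20 dpf replicate 1 or 3 or without 15 dpf replicate 1 or 2, nor that of opn1sw2 without 20 dpf replicate 2, and neither was called after centring, after a further quantile normalization or when only these 6 arrays set the spread. The cone opsin kinase grk1b fell by 0.55 (SE 0.14, adjusted p = 0.01), and the cone guanylate cyclase gucy2d fell by 0.58 (SE 0.14, adjusted p = 0.00837), with a difference of -0.07 when its probe sets were averaged. In all, 4 of 41 measured cone genes rose (9.76%, against 8.34% of all genes) and 4 fell (9.76%, against 4.03%). The count of falls was 2 without 20 dpf replicate 1 or 3 and without 15 dpf replicate 1 or 2.

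The rod genes that passed the test all rose, but the list means of the 2 ages overlapped. Mean signal of the rod list was 8.61, 8.41 and 8.53 in the 20 dpf pools, against 7.998, 8.44 and 8.27 in the 15 dpf pools. Replicate 2 of 15 dpf thus lay above replicate 2 of 20 dpf, and 15 dpf replicate 1 was the lowest array. Of 26 measured members 6 rose (23.1%, against 8.34% of all genes) and 0 fell (1 at an unadjusted p under 0.05), with a median of 0.25. The rod opsin kinase grk1a measured 8.82, 8.41 and 8.87 in the 20 dpf pools, against 7.36, 8.19 and 7.71 in the 15 dpf pools. It rose by 0.94 (SE 0.19, adjusted p = 0.00208), and 15 dpf replicate 2 came closest to the 20 dpf arrays. guca1b, an activator of the rod guanylate cyclase, rose by 0.80 (SE 0.19) and the rod-type opsin rhol by 0.93 (SE 0.25), and in each of them 15 dpf replicate 1 was the lowest array. Without that array 1 rod gene passed the test, and without 20 dpf replicate 1 it was 2. guca1b and rhol were not called without 15 dpf replicate 1, and rhol was not called without 20 dpf replicate 1 either. Melanopsin opn4a, a light sensor of inner retina and brain, measured 6.46 ± 0.15 at 20 dpf, against 5.83 ± 0.07 at 15 dpf, a rise of 0.64 (SE 0.16, adjusted p = 0.00917).

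The lens changed in both directions, with 9 of 59 measured genes risen (15.3%, against 8.34% of all genes) and 11 fallen (18.6%, against 4.03%). Gamma-crystallins of the M class and beta-crystallins pack the transparent fibre cells of the fish lens. crygm2a measured 9.45, 9.13 and 9.95 in the 20 dpf pools, against 6.34, 7.18 and 6.66 in the 15 dpf pools. The groups lay well apart, and the rise was 2.78 (SE 0.20, adjusted p = 9.51e-10), 6.89-fold. crygm6 measured 6.22, 5.57 and 6.93 in the 20 dpf pools, against 3.53, 3.90 and 4.08 in the 15 dpf pools, a rise of 2.404 (SE 0.26, adjusted p = 1.79e-06) from a mean under the dim limit. crybb2, a beta-crystallin, measured 7.91, 7.501 and 8.01 in the 20 dpf pools, against 5.87, 6.13 and 6.42 in the 15 dpf pools and rose by 1.67 (SE 0.17, adjusted p = 6.88e-07). The largest fall of all named genes was in the same family. crygm2d16 measured 2.37, 2.42 and 1.85 in the 20 dpf pools, against 7.15, 5.87 and 7.23 in the 15 dpf pools. The difference was -4.53 (SE 0.51, adjusted p = 2.07e-06), and since the 20 dpf mean lay under 6.06 it may be a lower limit. crygm2d17 had 6.97, 8.18 and 7.83 in the 20 dpf pools, against 11.75, 10.34 and 11.49 in the 15 dpf pools. It fell by 3.53 (SE 0.44, adjusted p = 9.22e-06), and 15 dpf replicate 2 was the lowest of its group in both of these copies. crygm2d6, crygm2d1 and crygm2d15 fell as well, with differences of -2.35 (SE 0.32), -1.72 (SE 0.30) and -1.38 (SE 0.43), and crygm2d6 was under 6.06 in both group means. At 10 and 30 dpf the control means were 5.58 and 10.32 for crygm2a and 11.66 and 4.59 for crygm2d17, so the opposite order held over the wider age range too. gje1a, which encodes a gap junction connexin, fell by 1.41 (SE 0.25). The call of crygm2d15 was lost without 20 dpf replicate 1 or 2, without 15 dpf replicate 2 or 3 and with array weights or an intensity trend. The crygm2d copies are near-identical in sequence and their probes may read one another, so which copies moved is uncertain. Rises in the list numbered 5 without 20 dpf replicate 3, and falls numbered 7 without 20 dpf replicate 2 and 7 without 15 dpf replicate 2 or 3.

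**Figure D1:**
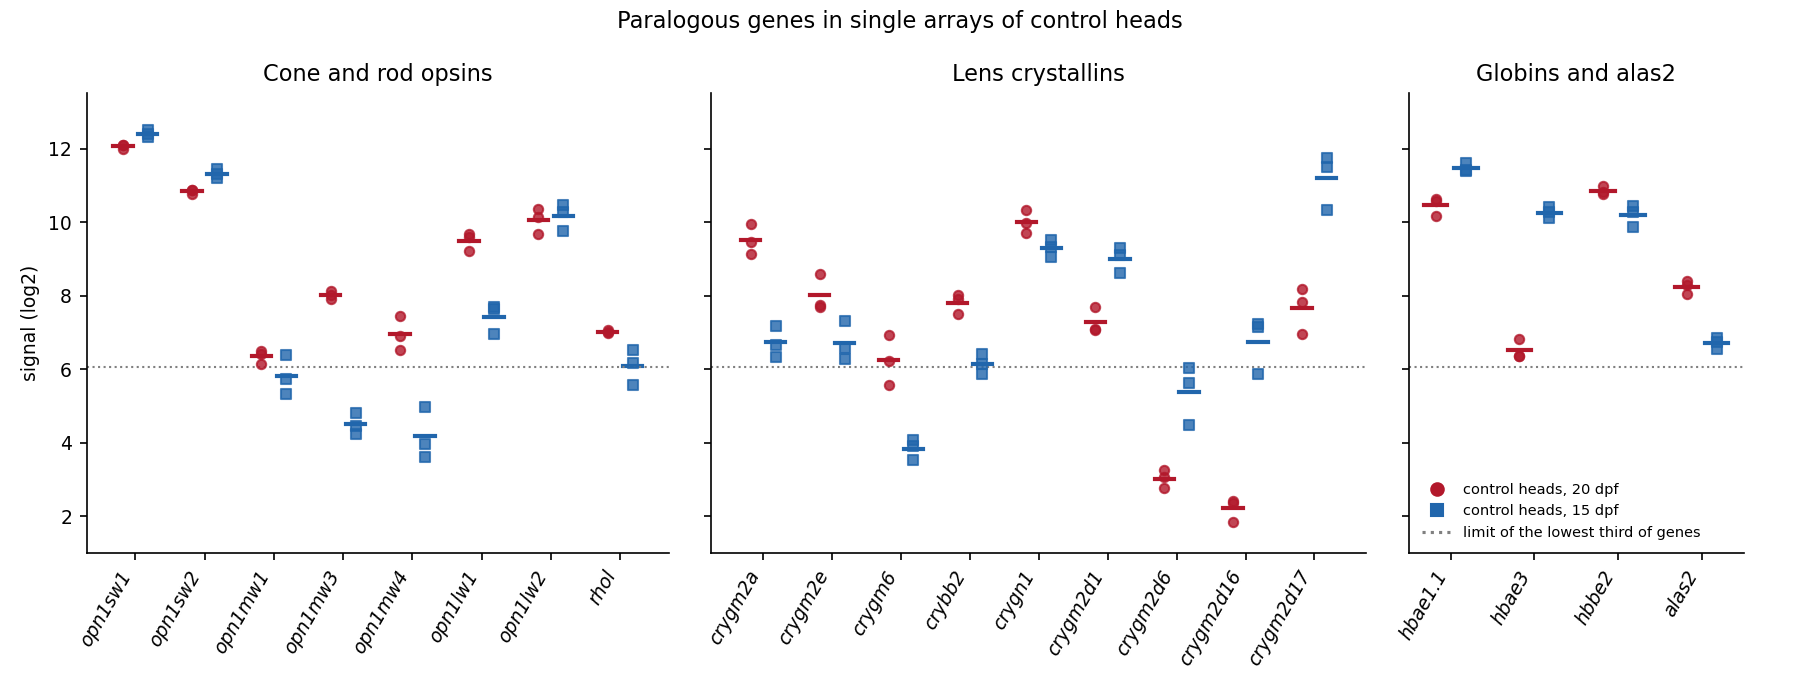
Log2 signal of opsins, lens crystallins, globins and the heme gene alas2 in each control array, with 20 dpf circles left of 15 dpf squares, bars at group means and a dotted line at 6.06. opn1mw3, crygm2a and alas2 were higher at 20 dpf, and crygm2d16 and hbae3 were lower.

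Red-cell genes changed in both directions. The embryonic alpha-globin hbae3 measured 6.51 ± 0.28 at 20 dpf, against 10.26 ± 0.15 at 15 dpf (SD, n = 3 each). Every 20 dpf array lay far below every 15 dpf array, and the difference of -3.75 (SE 0.23, adjusted p = 5.76e-11) was a 13.4-fold fall. Control means of hbae3 were 9.42 at 5 dpf, 8.52 at 10 dpf and 4.99 at 30 dpf. Another embryonic alpha-globin, hbae1.1, measured 10.62, 10.17 and 10.58 in the 20 dpf pools, against 11.39, 11.42 and 11.60 in the 15 dpf pools. It fell by 1.01 (SE 0.23, adjusted p = 0.00473) with no overlap. The gene alas2, the red-cell enzyme that starts heme synthesis, measured 8.40, 8.03 and 8.29 in the 20 dpf pools, against 6.54, 6.74 and 6.85 in the 15 dpf pools. It rose by 1.53 (SE 0.23, adjusted p = 8.68e-05). epb41b, a membrane skeleton protein of red cells, rose by 0.85 (SE 0.21), and cahz, a carbonic anhydrase of red cells, by 0.90 (SE 0.17), while fech, which inserts iron into heme, fell by 0.52 (SE 0.13). Red-cell genes therefore counted 7 rises (25.9%, against 8.34% of all genes) and 3 falls (11.1%, against 4.03%) among 27. The rises numbered 4 without 20 dpf replicate 1, 3 without 20 dpf replicate 3 and 4 without 15 dpf replicate 1. The gene cahz also stands in the list of radial and Muller glia. Alpha-globin copies resemble each other and may share probes.

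Genes of collagen and bone matrix had many rises, and RNA of whole heads does not show in which tissue. col1a1a, a chain of the type I collagen of bone, tendon and dermis, measured 12.08 ± 0.07 at 20 dpf, against 10.22 ± 0.21 at 15 dpf (SD, n = 3 each). All arrays of 20 dpf lay above those of 15 dpf, and the rise was 1.86 (SE 0.19, adjusted p = 6.66e-07). Its duplicate col1a1b measured 10.94, 10.91 and 11.11 in the 20 dpf pools, against 9.09, 9.15 and 9.26 in the 15 dpf pools, a rise of 1.82 (SE 0.14, adjusted p = 4.26e-09). col1a2, the partner chain of the same trimer, rose by 1.66 (SE 0.19), and the fibril-associated chain col12a1a by 1.31 (SE 0.14). col5a1 and col5a2b, chains of the type V collagen that seeds such fibrils, rose by 0.83 (SE 0.14) and 0.69 (SE 0.13). Of 46 collagen and collagen-processing genes 16 rose (34.8%, against 8.34% of all genes) and 3 fell (6.52%, against 4.03%). Without 15 dpf replicate 1 the rises numbered 10. Bone, tooth and fibroblast genes gave 22 rises among 55 (40%, against 8.34%) and 1 fall (1.82%, against 4.03%), with a median of 0.31. Their rises numbered 13 without 15 dpf replicate 1 and 14 without 20 dpf replicate 1. The collagenase mmp13b measured 8.56, 8.13 and 8.38 in the 20 dpf pools, against 5.88, 6.10 and 6.87 in the 15 dpf pools. It rose by 2.07 (SE 0.23, adjusted p = 1.79e-06), and 15 dpf replicate 3 was the nearest array. spp1, the bone matrix protein osteopontin, measured 8.32, 7.89 and 8.41 in the 20 dpf pools, against 6.27, 6.60 and 6.97 in the 15 dpf pools, a rise of 1.596 (SE 0.22, adjusted p = 3.07e-05). Gelatinase mmp9 rose by 1.604 (SE 0.17), membrane-anchored mmp14b by 1.19 (SE 0.16), and the proteoglycan decorin (dcn) by 0.71 (SE 0.10). Cartilage genes had 4 rises (10%, against 8.34% of all genes) and 4 falls (10%, against 4.03%) among 40. The minor fibrillar collagens col11a1b and col11a2 of this list rose by 0.92 (SE 0.15) and 0.77 (SE 0.17), and matn4, a matrilin of larval cartilage matrix, fell by 0.86 (SE 0.17). The falls of that list numbered 1 without 15 dpf replicate 3 and 2 without any 1 of the 20 dpf replicates, and its rises 2 without 15 dpf replicate 2 or 20 dpf replicate 1 or 2.

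Muscle genes had many rises. Of 96 measured members 32 rose (33.3%, against 8.34% of all genes) and 3 fell (3.13%, against 4.03%), with a median of 0.37. The fast troponin I gene tnni2a.3 measured 8.28, 7.72 and 8.58 in the 20 dpf pools, against 6.89, 6.52 and 6.82 in the 15 dpf pools. The groups did not overlap, and the rise was 1.45 (SE 0.19, adjusted p = 1.53e-05). tnni2a.1 and tnni2b.2 from the same family rose by 1.07 (SE 0.16) and 0.91 (SE 0.15), and copies of this family may share probes. A pair of calcium pumps of the sarcoplasmic reticulum rose as well: atp2a1l measured 10.50, 10.49 and 10.48 in the 20 dpf pools, against 8.94, 9.16 and 9.46 in the 15 dpf pools, 1.304 (SE 0.17, adjusted p = 2.03e-05), and atp2a2a rose by 1.03 (SE 0.13). The slow myosin heavy chain smyhc1 went the other way and measured 6.84, 6.62 and 6.73 in the 20 dpf pools, against 7.68, 7.55 and 8.15 in the 15 dpf pools. The difference was -1.06 (SE 0.18, adjusted p = 0.000307), with no overlap between ages. Without 20 dpf replicate 1 or without 15 dpf replicate 1, 21 muscle genes rose.

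Skin genes changed in a mixed way, with 13 rises (20.3%, against 8.34% of all genes) and 6 falls (9.38%, against 4.03%) among 64. The keratin krt92 measured 6.86, 6.70 and 6.74 in the 20 dpf pools, against 8.45, 7.68 and 8.49 in the 15 dpf pools. It fell by 1.44 (SE 0.18, adjusted p = 8.59e-06), with 15 dpf replicate 2 the lowest of its group. Other skin genes fell, with -0.89 (SE 0.13) for periplakin (ppl), -1.07 (SE 0.17) for envoplakin (evpla) and -0.86 (SE 0.13) for sciellin (scel). Basal-layer krt5 rose, with 12.64, 12.65 and 12.60 in the 20 dpf pools, against 11.94, 12.11 and 11.92 in the 15 dpf pools. That was 0.64 (SE 0.11, adjusted p = 0.000404), without overlap. tmprss13a, a membrane-bound serine protease, rose by 0.80 (SE 0.16). The rises were the less stable side of this list and numbered 5 without 20 dpf replicate 1, 8 without 20 dpf replicate 3, 5 without 15 dpf replicate 1 and 8 without 15 dpf replicate 2, and 3 when only these 6 arrays set the spread. Ionocytes, the salt-transporting cells of skin and gill, had 6 rises (20%, against 8.34% of all genes) and 1 fall (3.33%, against 4.03%) among 30. Sodium pump subunits atp1b1b and atp1a1a.3 rose by 0.84 (SE 0.14) and 1.14 (SE 0.26), and the anion exchanger slc4a1b by 1.11 (SE 0.18). The ammonia transporter rhcga measured 6.89, 7.02 and 6.90 in the 20 dpf pools, against 8.43, 7.89 and 8.41 in the 15 dpf pools, a difference of -1.31 (SE 0.22, adjusted p = 0.000347).

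Immune genes rose across several cell types. ccl25a, a chemokine that draws lymphocyte precursors to the thymus, measured 7.96, 7.54 and 7.71 in the 20 dpf pools, against 5.003, 5.44 and 4.92 in the 15 dpf pools. Its rise of 2.61 (SE 0.22, adjusted p = 3.02e-08), 6.11-fold, started from a mean under the dim limit, and no array overlapped. The recombination gene rag1, active in developing lymphocytes, measured 6.64, 6.47 and 5.95 in the 20 dpf pools, against 5.33, 4.91 and 5.34 in the 15 dpf pools and rose by 1.16 (SE 0.23, adjusted p = 0.00163). The interleukin receptor chains il7r and il2rga rose by 1.09 (SE 0.18) and 0.93 (SE 0.18), and coronin coro1a by 0.99 (SE 0.13). 13 of 42 lymphocyte and thymus genes rose (31%, against 8.34% of all genes) and 1 fell (2.38%, against 4.03%), with a median of 0.37. In both group means 22 of the 42 lay under 6.06. The rises numbered 7 without 20 dpf replicate 1 and 8 without 15 dpf replicate 1, and the fall was lost without any 1 of the 15 dpf replicates and without 20 dpf replicate 2 or 3. For antigen presentation, 8 of 28 genes rose (28.6%, against 8.34% of all genes) and 0 fell (0 at an unadjusted p under 0.05). The invariant chain cd74a, which guides major histocompatibility complex class II molecules, measured 10.47, 9.50 and 10.40 in the 20 dpf pools, against 7.29, 8.08 and 8.24 in the 15 dpf pools. It rose by 2.25 (SE 0.25, adjusted p = 1.79e-06), and its lowest array was 15 dpf replicate 1. The other invariant chain cd74b rose by 1.66 (SE 0.23), the class II activator ciita by 0.76 (SE 0.14), the thiol reductase ifi30a by 0.99 (SE 0.15) and the proteasome activator psme2 by 1.01 (SE 0.19). In the list of neutrophils and macrophages 10 of 52 rose (19.2%, against 8.34% of all genes), and 32 of the 52 lay under 6.06 in both group means. Among these rises was that of the macrophage perforin mpeg1.2, by 1.08 (SE 0.21). The count of rises was 5 without 20 dpf replicate 1, without 20 dpf replicate 3 and without 15 dpf replicate 2. cd74a and cd74b belong to both lists, and mmp9, given above with the matrix genes, also belongs to the list of neutrophils and macrophages.

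Of 49 neuron genes 10 rose (20.4%, against 8.34% of all genes) and 0 fell (2 at an unadjusted p under 0.05). Whole heads were read, so the values do not place these rises in the brain. stmn2b, a stathmin of growing axons, measured 8.10, 8.20 and 8.465 in the 20 dpf pools, against 7.06, 7.56 and 6.95 in the 15 dpf pools. It rose by 1.07 (SE 0.21, adjusted p = 0.00125). The synaptic vesicle proteins syn2b and syn1 rose by 0.78 (SE 0.16) and 0.73 (SE 0.16), and the kinase subunit camk2a by 0.60 (SE 0.13). Without 20 dpf replicate 1 the count of neuron genes was 5, and without 15 dpf replicate 3 it was 4. Myelin basic protein mbpa measured 9.56, 9.19 and 9.40 in the 20 dpf pools, against 8.22, 8.19 and 8.39 in the 15 dpf pools. The ages did not overlap, and the rise was 1.12 (SE 0.16, adjusted p = 6.94e-05). myrf, the transcription factor that drives myelin genes, rose by 0.55 (SE 0.12), and the junction protein cldn19 by 0.64 (SE 0.11). The myelin list held 6 rises among 22 (27.3%, against 8.34% of all genes), and 0 fell (0 at an unadjusted p under 0.05). Without 20 dpf replicate 3 the rises numbered 3. eomesa, a transcription factor of forebrain neurons and of some lymphocytes, measured 7.07, 6.36 and 6.81 in the 20 dpf pools, against 5.17, 5.73 and 5.79 in the 15 dpf pools, a rise of 1.18 (SE 0.20, adjusted p = 0.000306). notch3, a receptor of radial glia and of vessel walls, rose by 0.67 (SE 0.12). Both stand in the list of neural progenitors and young neurons, which had 4 rises (9.3%, against 8.34% of all genes) and 4 falls (9.3%, against 4.03%) among 43. The median of that list was -0.10. The Notch ligand dla and the progenitor factors sox3 and sox11a fell, with -0.47 (SE 0.12), -0.46 (SE 0.13) and -0.28 (SE 0.09). None of these 3 was called without 15 dpf replicate 1, without 20 dpf replicate 3 or when only the compared arrays set the spread, and sox11a was not called after centring. Falls in this list numbered 1 without 15 dpf replicate 1 or 3 or 20 dpf replicate 1 and 0 without 20 dpf replicate 3, and rises 2 without 15 dpf replicate 3 or 20 dpf replicate 3. The growth hormone gene gh1 of the pituitary measured 8.39, 7.80 and 8.19 in the 20 dpf pools, against 6.73, 7.34 and 7.10 in the 15 dpf pools. It rose by 1.07 (SE 0.20, adjusted p = 0.00114), the single call among 26 thyroid and pituitary genes. Of these 26 genes 18 lay under 6.06 in both group means.

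Genes of organs behind the gills were checked because heads were cut by hand. Mean signal of 29 exocrine pancreas genes was 5.06, 5.11 and 5.17 in the 20 dpf pools, against 6.17, 5.58 and 5.65 in the 15 dpf pools, and 15 dpf replicate 1 stood highest. Control pools of 5, 10 and 30 dpf had 8.83 to 9.02, 5.10 to 5.21 and 5.26 to 5.61. The trypsin genes prss59.1 and prss1 measured 4.63, 4.88 and 4.88 in the 20 dpf pools, against 9.32, 7.08 and 7.58 in the 15 dpf pools and 4.44, 4.604 and 4.83 in the 20 dpf pools, against 7.98, 6.05 and 6.73 in the 15 dpf pools. Both fell, prss59.1 with -3.195 (SE 0.61, adjusted p = 0.00122) and prss1 with -2.296 (SE 0.52, adjusted p = 0.00487). Of the 29 pancreas genes 9 fell (31%, against 4.03% of all genes), and 19 lay under 6.06 in both group means. The falls numbered 3 without 15 dpf replicate 1, and 5 and 5 without 20 dpf replicates 1 and 3. Another trypsin gene, prss59.2, measured 5.74, 5.60 and 5.56 in the 20 dpf pools, against 9.82, 6.85 and 7.59 in the 15 dpf pools, and the digestive proteases cpa5, ela3l and ela2 fell with it, with -2.45 (SE 0.64), -1.57 (SE 0.44), -1.45 (SE 0.42) and -1.36 (SE 0.35). In each of the 3 trypsin genes 15 dpf replicate 1 was the highest array. apobb.1, an apolipoprotein of liver, gut and yolk, measured 4.54, 4.98 and 4.50 in the 20 dpf pools, against 7.64, 5.96 and 5.80 in the 15 dpf pools and fell by 1.79 (SE 0.58, adjusted p = 0.0431). Without 15 dpf replicate 1 none of prss59.2, cpa5, ela3l, ela2 and apobb.1 was called, with -1.59, -1.06, -0.91, -0.98 and -1.21. Leaving out 20 dpf replicates 1, 2 or 3 ended the call of apobb.1 each time, replicate 2 that of cpa5, replicate 3 that of ela2 and replicate 1 or 3 that of ela3l. Trypsin copies are near-identical and may share probes. Liver genes gave 2 rises (3.57%, against 8.34% of all genes) and 1 fall (1.79%, against 4.03%) among 56. Intestine genes gave 2 rises (5.56%) and 2 falls (5.56%) among 36. Leaving out single arrays took the falls of these 2 lists and the rises of the intestine list to 0. In both group means 43 of the 56 liver genes and 28 of the 36 intestine genes lay under 6.06. Their low counts of calls therefore do not show that liver or intestine RNA was unchanged. The part of pancreas RNA in the other results was not tested.

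**Figure D2:**
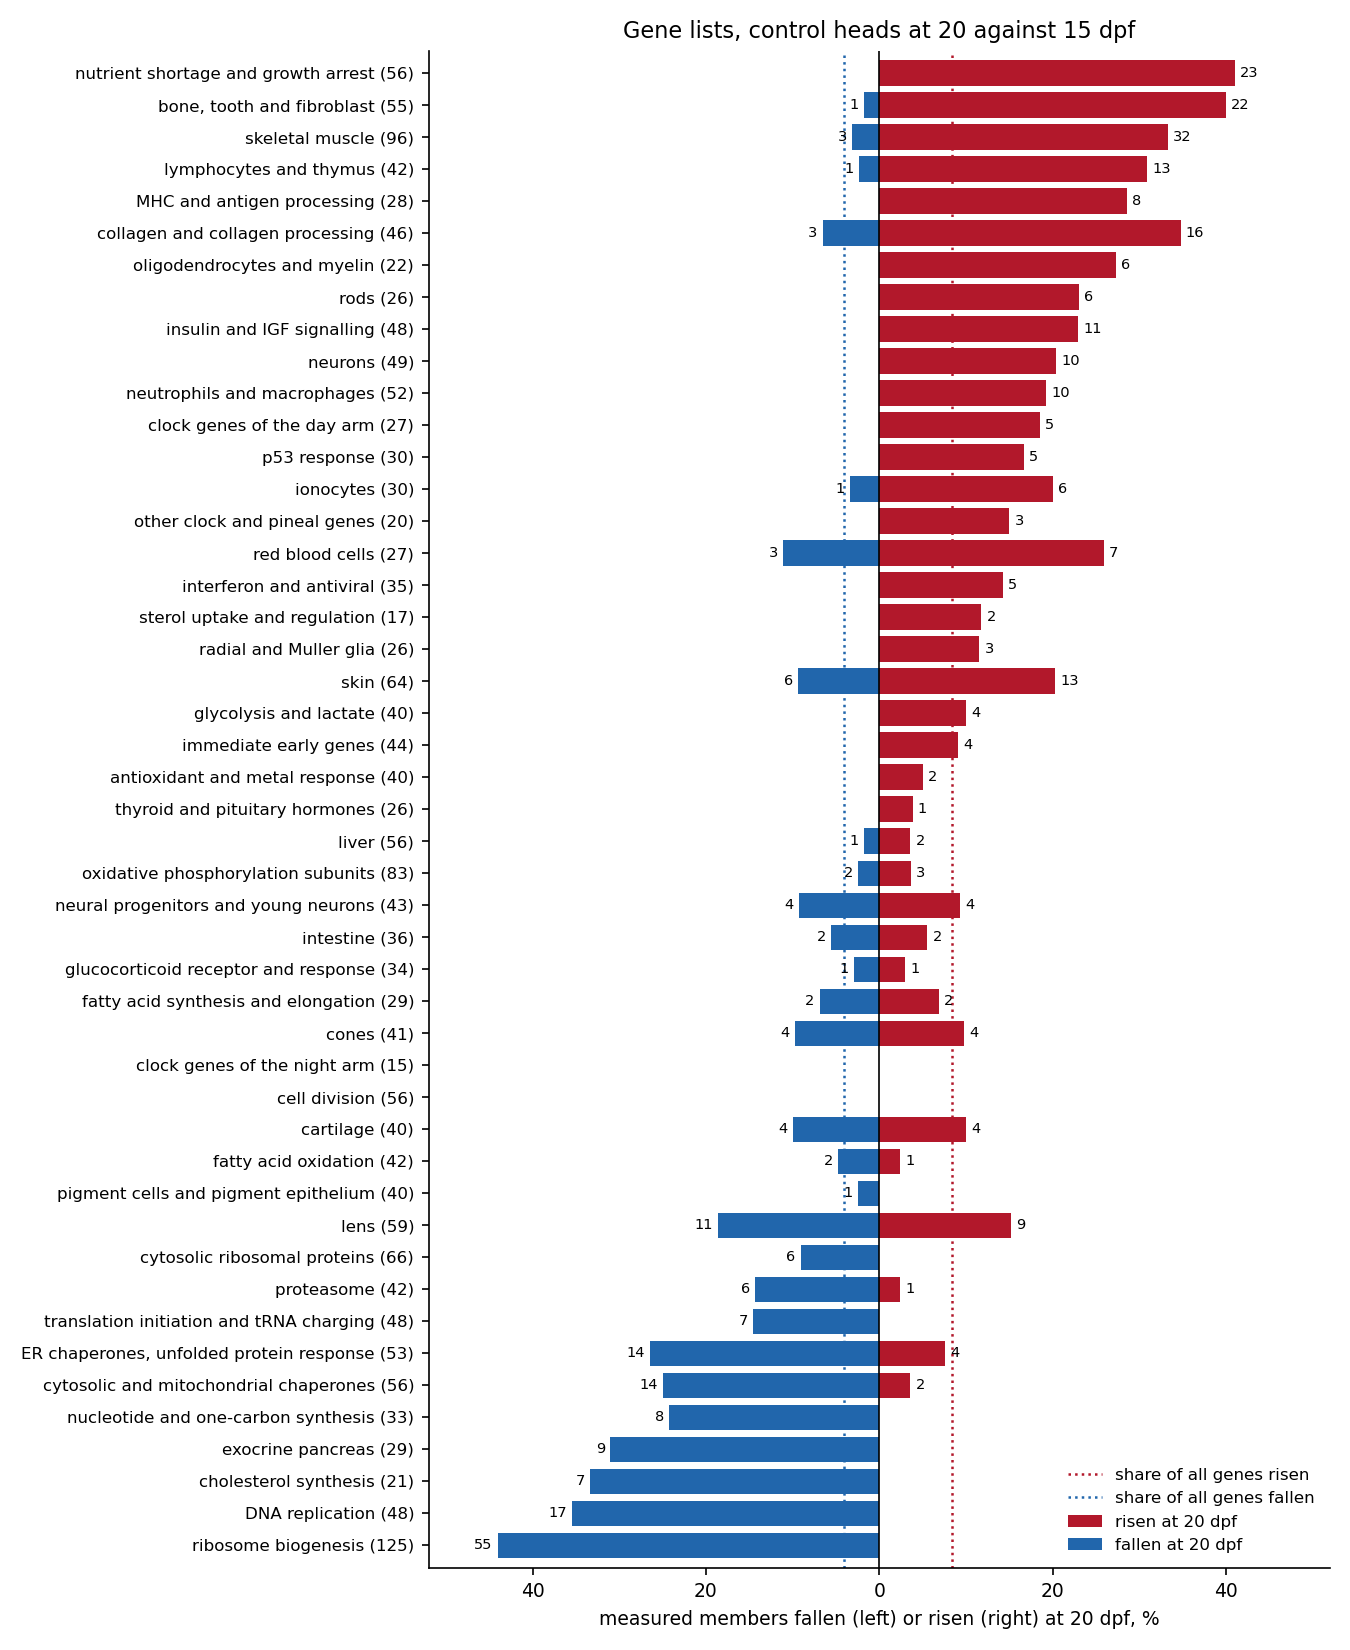
Share of measured members of each gene list that fell (left, blue) or rose (right, red) in control heads at 20 against 15 dpf, with member numbers in brackets, counts at the bars and dotted lines at the shares over all genes. Ribosome biogenesis had 55 falls and no rise, and nutrient shortage, muscle and bone lists had mainly rises.

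Growth genes fell. Of 125 ribosome biogenesis genes 55 fell (44%, against 4.03% of all genes) and 0 rose (1 at an unadjusted p under 0.05), with a median of -0.37. abcf2a, an ATP-binding protein of ribosome assembly and translation, measured 7.34, 7.09 and 7.26 in the 20 dpf pools, against 8.49, 8.31 and 8.69 in the 15 dpf pools. All 3 arrays at 20 dpf lay below those at 15 dpf, and the difference was -1.27 (SE 0.16, adjusted p = 1.36e-05). Fibrillarin (fbl), which methylates ribosomal RNA, measured 7.64, 7.72 and 7.74 in the 20 dpf pools, against 8.66, 8.62 and 8.70 in the 15 dpf pools, a difference of -0.96 (SE 0.14, adjusted p = 7.23e-05). imp4, mak16 and nop56, factors that process the ribosomal RNA precursor or mature the large subunit, fell, with -1.06 (SE 0.13), -1.08 (SE 0.16) and -0.74 (SE 0.10). pprc1, a coactivator of growth and mitochondrial genes, fell by 1.29 (SE 0.19). The falls of this list numbered 33 without 20 dpf replicate 2, 36 without 20 dpf replicate 3 and 32 without 15 dpf replicate 3, with no rise in any of these. They numbered 38 after centring and 29 when only these 6 arrays set the spread, again with no rise. Translation factors and tRNA synthetases had 7 falls among 48 (14.6%, against 4.03% of all genes). Among them were the cap-binding factor eif4e1c with -0.84 (SE 0.12) and the synthetases qars1 with -0.98 (SE 0.16) and kars1 with -0.54 (SE 0.11). The falls of the translation list numbered 3 without 20 dpf replicate 2, 4 without 20 dpf replicate 3 and 3 and 4 without 15 dpf replicates 1 and 3. The cytosolic ribosomal proteins themselves had 6 falls among 66 (9.09%, against 4.03% of all genes), and 2 without 20 dpf replicate 1 or 2 and 1 without 15 dpf replicate 3.

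DNA replication genes went the same way, with 17 falls among 48 (35.4%, against 4.03% of all genes), and 0 rose (0 at an unadjusted p under 0.05). mcm6, a subunit of the replicative helicase, measured 7.99, 8.08 and 8.11 in the 20 dpf pools, against 8.90, 8.74 and 8.89 in the 15 dpf pools. It fell by 0.78 (SE 0.15, adjusted p = 0.00132) with no overlap. The chromatin helicase hells, the helicase subunit mcm4, the flap nuclease fen1 and the ligase lig1 fell, with -1.06 (SE 0.15), -0.76 (SE 0.15), -0.76 (SE 0.16) and -0.68 (SE 0.15). The falls numbered 9 without 20 dpf replicate 2, without 20 dpf replicate 3 and without 15 dpf replicate 3. Of 56 cell division genes, 0 passed the limma test in either direction, 0 were higher and 5 lower at an unadjusted p under 0.05, and the median was -0.07. Falls there numbered 3 without 15 dpf replicate 2, 1 without 15 dpf replicate 1, and at most 2 under the other alternatives. In the supply of nucleotides, polyamines and methyl groups 8 of 33 genes fell (24.2%, against 4.03% of all genes) and 0 rose (0 at an unadjusted p under 0.05). Ornithine decarboxylase odc1, the entry enzyme of polyamine synthesis, measured 8.15, 7.81 and 8.14 in the 20 dpf pools, against 9.44, 9.08 and 9.39 in the 15 dpf pools. It fell by 1.27 (SE 0.27, adjusted p = 0.00246). Spermidine synthase srm, the folate enzyme shmt1 and ahcy, which clears S-adenosylhomocysteine, fell, with -0.81 (SE 0.15), -0.71 (SE 0.14) and -0.95 (SE 0.14).

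Genes of sterol synthesis and protein folding had falls too. Of 21 cholesterol synthesis genes 7 fell (33.3%, against 4.03% of all genes) and 0 rose (1 at an unadjusted p under 0.05), with a median of -0.37. hmgcs1, the synthase that feeds the mevalonate pathway, measured 7.97, 7.34 and 7.89 in the 20 dpf pools, against 8.85, 8.65 and 8.83 in the 15 dpf pools. It fell by 1.05 (SE 0.15, adjusted p = 7.98e-05), and 20 dpf replicate 2 was the lowest array. The rate-limiting reductase hmgcra measured 8.13, 7.55 and 7.91 in the 20 dpf pools, against 8.55, 8.70 and 8.74 in the 15 dpf pools, a difference of -0.80 (SE 0.18, adjusted p = 0.00396), and the lanosterol demethylase cyp51 fell by 0.76 (SE 0.15). abca1a, a transporter that exports cholesterol from cells, rose by 0.86 (SE 0.18). Chaperones of cytosol and mitochondria gave 14 falls among 56 (25%, against 4.03% of all genes) and 2 rises (3.57%, against 8.34%). Of these, dnajc21, a co-chaperone of ribosome maturation, measured 5.98, 6.19 and 6.03 in the 20 dpf pools, against 7.30, 7.12 and 7.45 in the 15 dpf pools. The difference was -1.23 (SE 0.17, adjusted p = 3.56e-05). dnaja1 and ptges3a, co-chaperones of the heat shock proteins, fell, with -0.61 (SE 0.12) and -0.59 (SE 0.14). Of 53 genes of the endoplasmic reticulum list 14 fell (26.4%, against 4.03%) and 4 rose (7.55%, against 8.34%). manf, a factor secreted under folding stress, measured 7.80, 7.42 and 7.80 in the 20 dpf pools, against 8.92, 8.67 and 8.98 in the 15 dpf pools. It fell by 1.19 (SE 0.19, adjusted p = 0.000158), and the lumenal chaperones hyou1 and hsp90b1 fell, with -0.82 (SE 0.13) and -0.75 (SE 0.17). The falls in the cytosolic list numbered 6, 7 and 4 without 20 dpf replicates 2 and 3 and without 15 dpf replicate 3, and those in the reticulum list 9, 7, 9 and 7 without 20 dpf replicates 1, 2 and 3 and without 15 dpf replicate 3. The rises there numbered 1 without 20 dpf replicate 1 or 15 dpf replicate 1 and 2 without 20 dpf replicate 3.

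Genes of nutrient shortage and growth arrest rose. Of 56 members 23 rose (41.1%, against 8.34% of all genes) and 0 fell (1 at an unadjusted p under 0.05), with a median of 0.38. Sestrin sesn1, which restrains TOR signalling when amino acids are short, measured 10.45, 10.18 and 10.26 in the 20 dpf pools, against 9.02, 9.58 and 8.998 in the 15 dpf pools. It rose by 1.1005 (SE 0.16, adjusted p = 5.49e-05), and 15 dpf replicate 2 was the nearest array. txnipa, which limits glucose uptake, measured 10.14, 10.24 and 9.85 in the 20 dpf pools, against 8.73, 9.05 and 8.90 in the 15 dpf pools and rose by 1.19 (SE 0.16, adjusted p = 2.13e-05). Its duplicate txnipb rose by 1.05 (SE 0.14), the mitophagy receptor bnip3lb by 0.81 (SE 0.16) and the autophagy gene tp53inp1 by 0.84 (SE 0.17). The pro-apoptotic gene bbc3, a target of p53 and FoxO, rose by 0.86 (SE 0.17). It stands in the list of p53 response genes, and so do sesn1 and tp53inp1 of the nutrient list. In the p53 list 5 of 30 genes rose (16.7%, against 8.34% of all genes) and 0 fell (2 at an unadjusted p under 0.05). The rises of the p53 list numbered 3 without 20 dpf replicate 1 or 3 or 15 dpf replicate 1. The rises of the nutrient list numbered 14 without 20 dpf replicate 1, 14 without 20 dpf replicate 3, 14 without 15 dpf replicate 1 and 12 without 15 dpf replicate 3. They numbered 11 when only these 6 arrays set the spread. In insulin and IGF signalling 11 of 48 genes rose (22.9%, against 8.34% of all genes) and 0 fell (1 at an unadjusted p under 0.05). These rises numbered 7 without 15 dpf replicate 3 and 6 when only these 6 arrays set the spread. By role, the ligands igf2b and igf2a measured 8.66 ± 0.22 at 20 dpf, against 7.51 ± 0.15 at 15 dpf and 7.67 ± 0.13 at 20 dpf, against 6.70 ± 0.27 at 15 dpf. Their rises were 1.151 (SE 0.23, adjusted p = 0.00156) and 0.96 (SE 0.15, adjusted p = 0.000157). Of the receptors, insra rose by 0.52 (SE 0.11, adjusted p = 0.00362), which was not called when only these 6 arrays set the spread, and insrb had 0.19 (SE 0.11, adjusted p = 0.292). The binding proteins igfbp5b and igfbp7 rose by 0.68 (SE 0.12) and 0.72 (SE 0.15). The kinase pdpk1a, which activates Akt, rose by 0.86 (SE 0.19), and the FoxO factor foxo4, which Akt inhibits, by 0.88 (SE 0.16). grb10a itself measured 8.504, 8.31 and 8.37 in the 20 dpf pools, against 8.06, 8.22 and 8.08 in the 15 dpf pools, and its difference of 0.28 (SE 0.12, adjusted p = 0.125) did not pass the test.

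Clock genes were examined because the sampling hour is unknown here. Genes that peak by day had 5 rises among 27 (18.5%, against 8.34% of all genes), and 0 fell (1 at an unadjusted p under 0.05). Their mean signal was 8.01, 7.93 and 7.95 in the 20 dpf pools, against 7.49, 7.87 and 7.63 in the 15 dpf pools. The 20 dpf pools lay close together, and 15 dpf replicate 2 was nearest to them. The clock-controlled factor hlfa measured 10.03, 9.91 and 10.09 in the 20 dpf pools, against 8.52, 9.59 and 9.34 in the 15 dpf pools, a rise of 0.86 (SE 0.23, adjusted p = 0.0148). Day-arm calls numbered 0 without 15 dpf replicate 1, 3 without 15 dpf replicate 3, 11 without 15 dpf replicate 2, and 2, 3 and 2 without 20 dpf replicates 1, 2 and 3. hlfa was not called without 15 dpf replicate 1 or without 20 dpf replicate 3. Of 15 night-arm genes 0 were called by limma, 2 were higher and 3 lower at an unadjusted p under 0.05, and their mean signal was 7.97 to 7.999 at 20 dpf and 7.84 to 8.17 at 15 dpf. The part of the time of day in the growth results was not tested.

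The control step was then set against the same step in grb10a knockdown heads, which share no array with it. grb10a itself measured 8.26, 8.08 and 8.13 in knockdown pools of 20 dpf, against 8.502, 8.33 and 8.53 in those of 15 dpf, and since gene-level probes do not read splicing, its signal is no check of the knockdown. In the knockdown 2535 genes rose (13.2%) and 2358 fell (12.2%). The difference between the steps, control minus knockdown, passed the test for 4004 genes (20.8%). Of the 1607 genes that rose in controls, 335 rose in the knockdown (20.8% of the control rises), 313 fell there (19.5%), and the difference was called for 796 (49.5%). Of the 777 that fell in controls, 88 fell in the knockdown (11.3%), 382 rose there (49.2%), and the difference was called for 561 (72.2%). These genes were picked by control arrays that also enter the difference. The shares with a called difference therefore exceed the 20.8% of all genes in part by that choice.

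Several growth lists, though not all, ran in opposite directions in the 2 arms. Against 55 falls and no rise in controls, ribosome biogenesis had 4 falls and 90 rises in the knockdown, with medians of -0.37 and 0.55. In the knockdown 12.2% of all genes fell and 13.2% rose. The difference was called for 101 of the 125 ribosome biogenesis genes (80.8%, against 20.8% of all genes), 96 negative and 5 positive. abcf2a measured 8.94, 9.07 and 9.12 in knockdown pools of 20 dpf, against 6.72, 7.14 and 7.37 in those of 15 dpf. The order of the ages was thus turned round, and the difference between its steps was -3.24 (SE 0.23, adjusted p = 6.53e-10). For cholesterol synthesis the medians were -0.37 in controls and 0.93 in the knockdown, where 18 of 21 genes rose. The difference was called for 18 (85.7%), 17 negative and 1 positive. The steps of hmgcs1 were -1.05 in controls and 1.47 in the knockdown and differed by -2.51 (SE 0.22, adjusted p = 1.83e-08). In the reticulum list 30 of 53 differences were called (56.6%), 26 negative and 4 positive. manf had -1.19 in controls and 2.003 in the knockdown, a difference of -3.19 (SE 0.26, adjusted p = 8.79e-09). For DNA replication 32 of 48 were called (66.7%), all negative, with medians of -0.36 and 0.42. The nutrient list gave medians of 0.38 in controls and -0.37 in the knockdown, 28 falls among 56 in the knockdown, and 33 called differences (58.9%), all positive. sesn1 measured 9.09, 8.97 and 9.06 in knockdown pools of 20 dpf, against 10.56, 10.36 and 10.28 in those of 15 dpf, and its steps differed by 2.46 (SE 0.22, adjusted p = 2.57e-08). Cytosolic ribosomal proteins did not turn round, with medians of -0.17 in controls and -0.06 in the knockdown. They had 2 falls there and 4 called differences of 66 (6.06%), and cell division had 1 called difference of 56 (1.79%). Beside these, day-arm clock genes had 15 called differences of 27 (55.6%), all positive, with 13 falls in the knockdown. Night-arm genes had 8 of 15 (53.3%), 7 positive and 1 negative, with 10 falls in the knockdown. rhcga had one of the larger reversals, with -1.31 in controls and 1.72 in the knockdown, a difference of -3.02 (SE 0.31, adjusted p = 1.46e-07). Single genes of this paragraph were named by their control step, whose arrays also enter the difference.

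**Figure D3:**
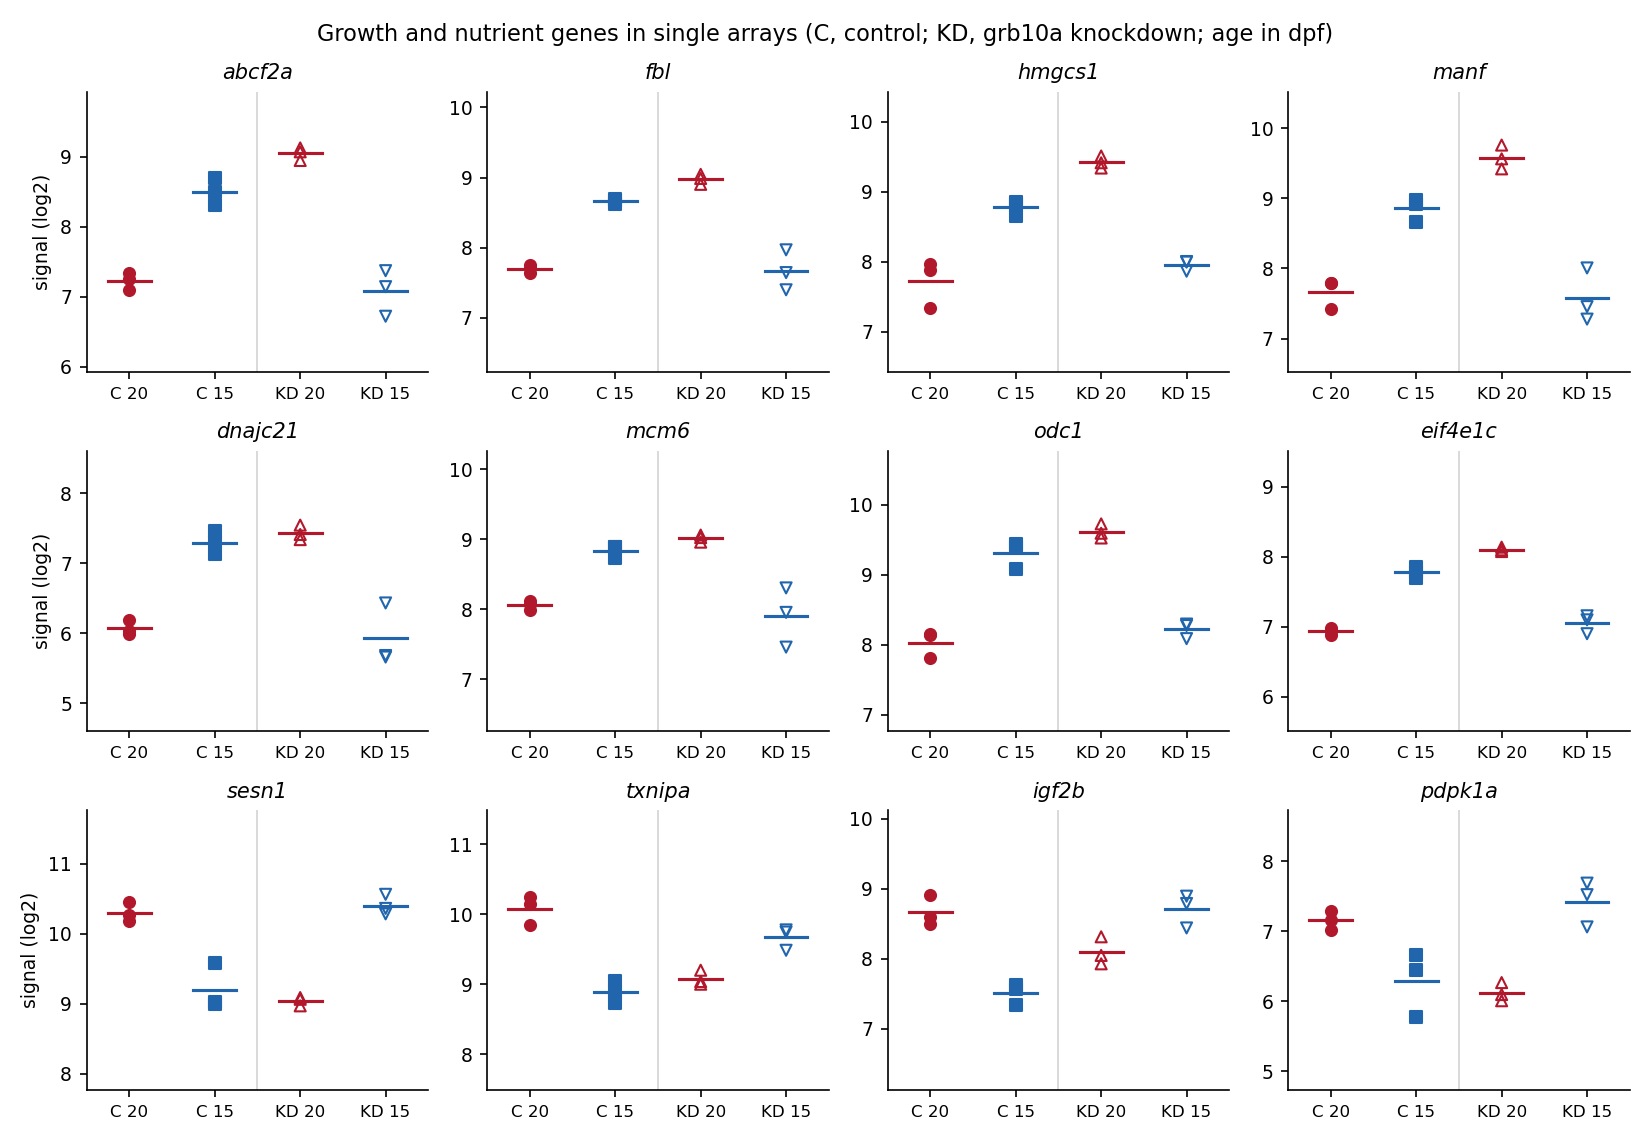
Log2 signal of 12 growth and nutrient genes in each array, with control pools (C, filled) left and grb10a knockdown pools (KD, open) right of the grey line, 20 dpf red and left of 15 dpf blue, and bars at group means over a span of 4 log2 units per panel. In the first 8 genes control pools were lower at 20 than at 15 dpf and knockdown pools higher, and in the last 4 control pools were higher at 20 dpf.

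Tissue lists differed in how far the 2 arms were alike. Muscle had 0.37 in controls and 0.52 in the knockdown with 6 called differences among 96 genes, bone and fibroblast 0.31 and 0.38 with 6 among 55, lymphocytes 0.37 and 0.32 with 1 among 42, and antigen processing 0.39 and 0.51 with 3 among 28. Medians lay further apart for neurons (0.22 in controls and -0.09 in the knockdown, 4 called of 49), cones (-0.05 and -0.34, 5 of 41), lens (-0.23 and -0.72, 5 of 59), exocrine pancreas (-0.37 and -1.04, 10 of 29) and red cells (0.16 and 0.41, 6 of 27). Collagen genes had medians of 0.23 in controls and 0.71 in the knockdown, with 33 rises there and 10 called differences of 46, all negative. The share of called differences was 34.5% for pancreas, 22.2% for red cells and 21.7% for collagen, against 20.8% over all genes. It lay below that background in the other lists given here. The opsin opn1mw3 had steps of 3.52 in controls and 3.35 in the knockdown, with a difference of 0.17 (SE 0.45, adjusted p = 0.829), and crygm2a had 2.78 and 2.56, with a difference of 0.22 (SE 0.28, adjusted p = 0.624). For opn1mw4, ccl25a and hbae3 the direction was shared and the control step was the larger, by 1.14 (SE 0.39, adjusted p = 0.037), 1.17 (SE 0.32, adjusted p = 0.00952) and, for the fall of hbae3, -1.36 (SE 0.32, adjusted p = 0.00338). Some immune genes rose in controls without a like step in the knockdown: mpeg1.2 had 1.08 in controls and -0.26 in the knockdown, a difference of 1.34 (SE 0.30, adjusted p = 0.00182), and ifi30a had 0.99 and -0.05, a difference of 1.04 (SE 0.21, adjusted p = 0.000795). All single genes of this paragraph were named by their control step. That choice favours a larger step in controls, and no genes were named by the knockdown step.

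**Figure D4:**
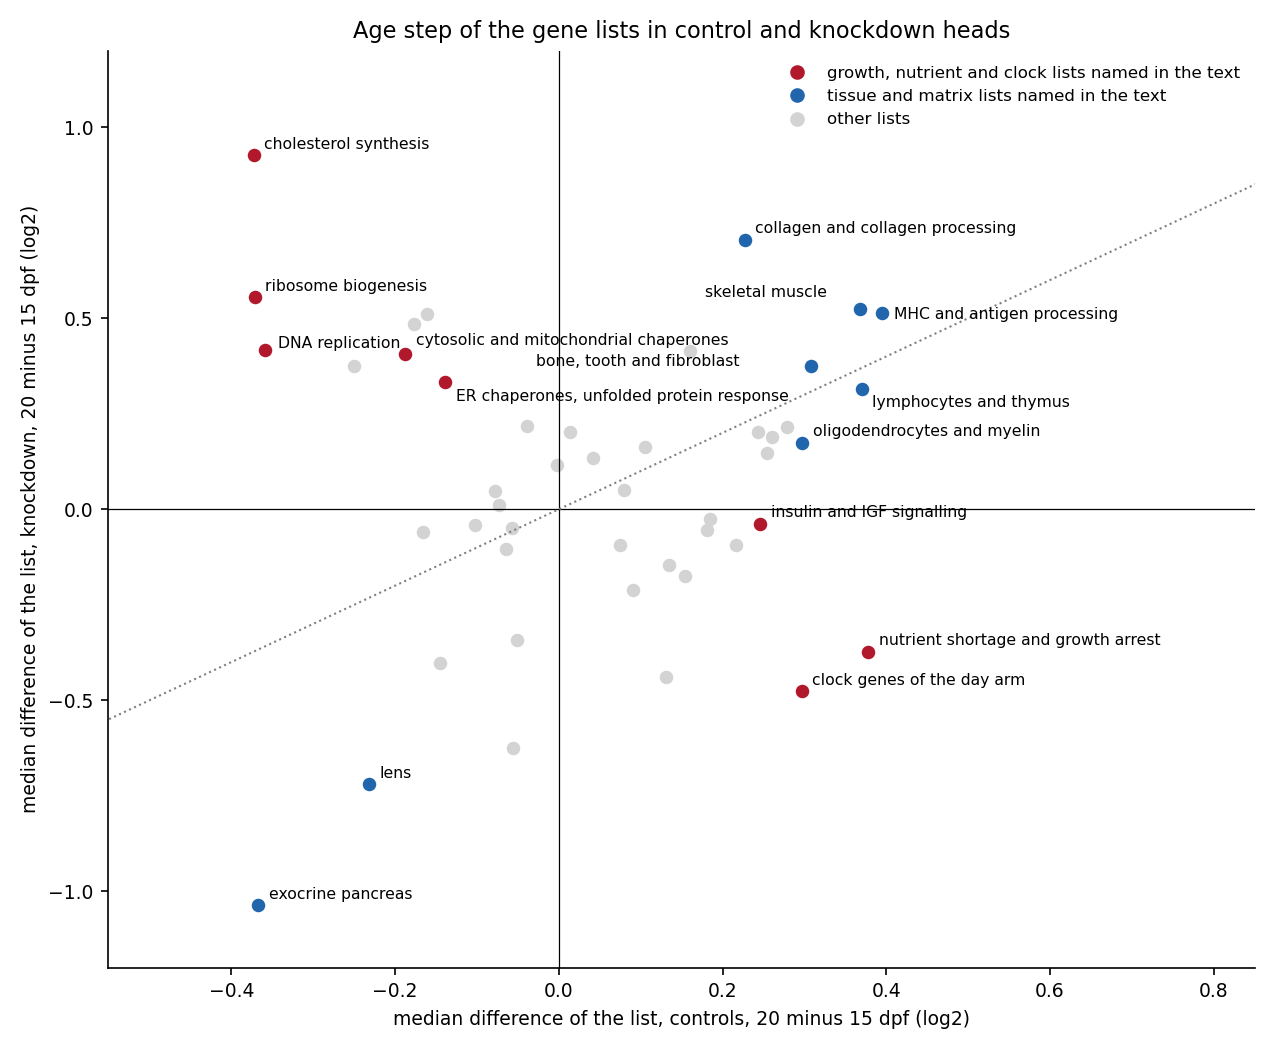
Median log2 difference between 20 and 15 dpf of each gene list in control heads (horizontal) and in grb10a knockdown heads (vertical), with a dotted line where both would be equal. Ribosome biogenesis and cholesterol synthesis lie at the upper left, with control medians of -0.37 each, and the nutrient list lies at the lower right, with 0.38 in controls.

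Over the 5 control ages the lists given here had different courses, shown as mean signals without a test. For ribosome biogenesis the arrays of 5, 10, 15, 20 and 30 dpf spanned 6.78 to 6.85, 6.67 to 6.88, 7.12 to 7.22, 6.73 to 6.84 and 7.41 to 7.51, so the 15 dpf pools stood above both neighbouring ages. DNA replication took 6.21 to 6.31, 6.26 to 6.43, 7.03 to 7.13, 6.66 to 6.77 and 6.85 to 7.06 over the same ages. The nutrient list was lowest at 15 dpf, with 7.54 to 7.65, 7.45 to 7.70, 6.96 to 7.20, 7.37 to 7.47 and 7.16 to 7.26, and its 15 and 30 dpf ranges overlapped. Muscle, by contrast, had a higher mean signal at each later age from 10 dpf onward, with 7.85 to 7.87, 6.999 to 7.11, 7.42 to 7.63, 7.81 to 7.91 and 8.88 to 9.08. Antigen processing took 5.64 to 5.67, 5.55 to 5.76, 5.93 to 6.199, 6.48 to 6.59 and 7.01 to 7.27, without overlap between 15, 20 and 30 dpf. In the knockdown, ribosome biogenesis stood at 7.45 to 7.51 at 20 dpf, against 6.87 to 6.98 at 15 dpf, and the nutrient list at 6.98 to 7.15 at 20 dpf, against 7.41 to 7.59 at 15 dpf. Control pools of 20 dpf therefore lay below knockdown pools of 20 dpf in ribosome biogenesis, and control pools of 15 dpf above knockdown pools of 15 dpf.

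**Figure D5:**
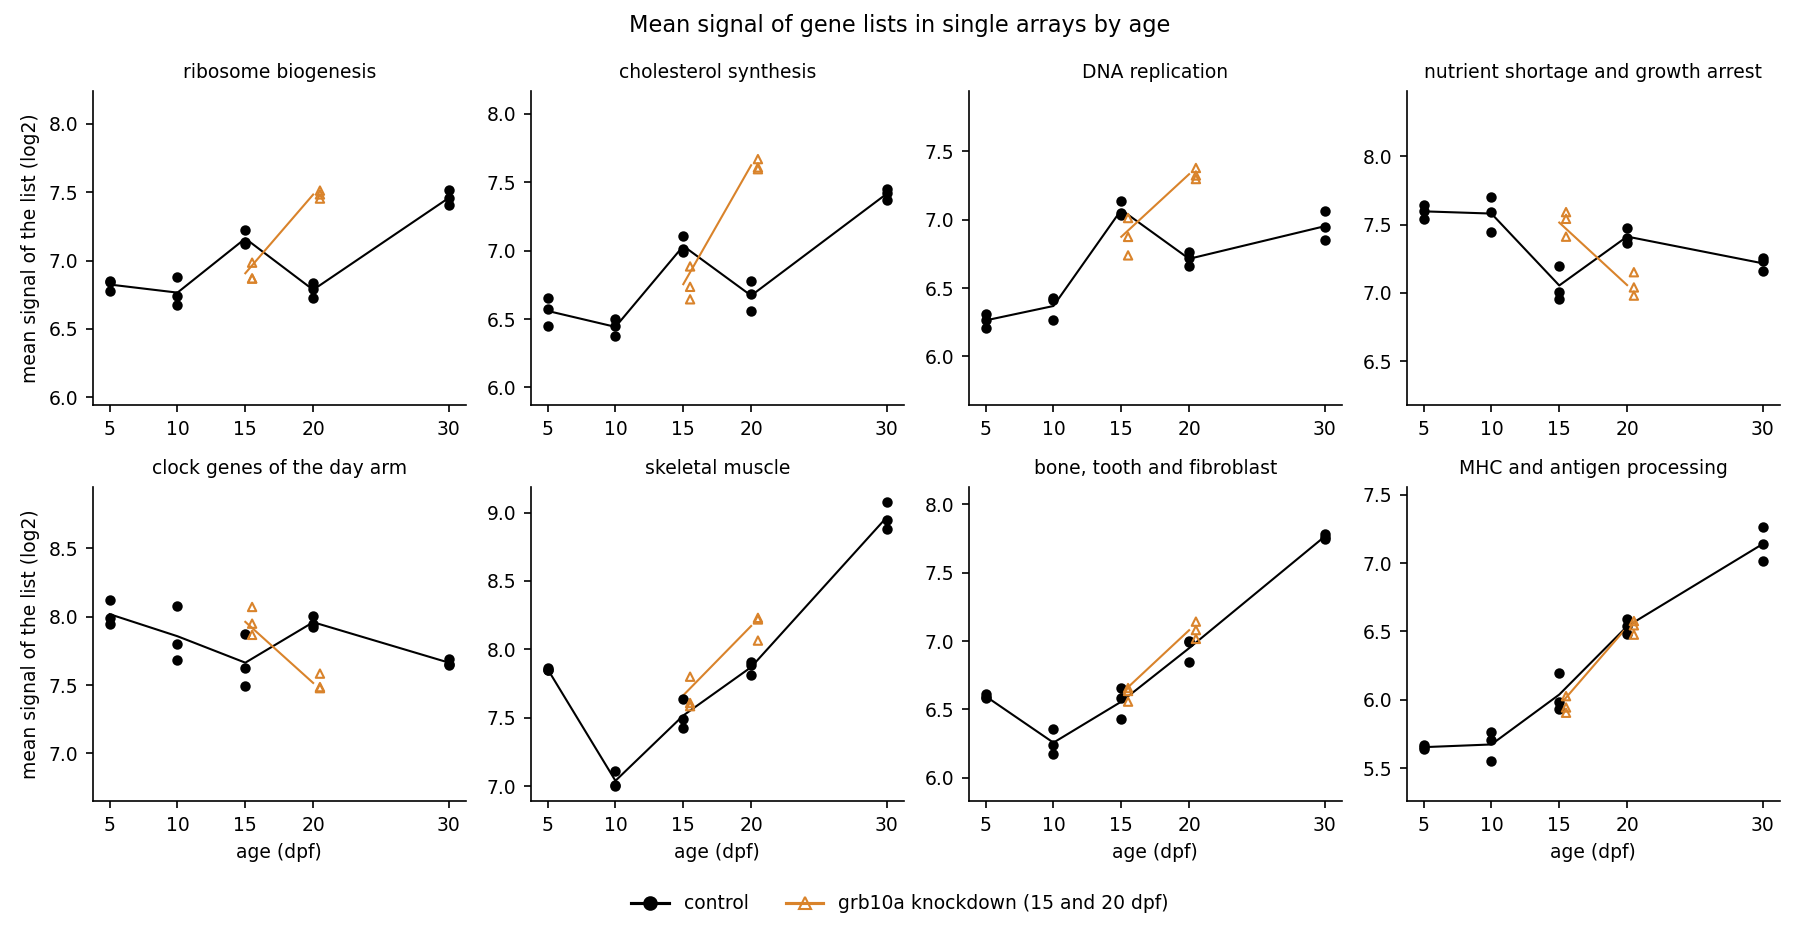
Mean log2 signal of 8 gene lists in each array by age, with control pools in black over 5 ages, grb10a knockdown pools at 15 and 20 dpf as open triangles set slightly to the right, and lines through group means. Ribosome biogenesis, cholesterol synthesis and DNA replication were lower at 20 than at 15 dpf in controls and higher in the knockdown, and muscle, bone and antigen processing were higher at 20 dpf in both.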

How the data were processed

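RNA of head pools was hybridised to Affymetrix ZebGene 1.0 ST arrays, 1 pool per array. The authors deposited log2 signals, and the submitters' processing notes name RMA as the tool. No genome build was used here. Of 75212 probe sets, 20806 (27.7%) had 1 gene symbol, 855 had several and 53551 none. The brightest probe set of each symbol was kept, which gave 19260 genes. A mean was fitted per group over all 30 arrays with limma 3.58.1 (R 4.3.3), with empirical Bayes variances (6.05 prior and 20 residual degrees of freedom) and Benjamini-Hochberg adjustment. Called means an adjusted p under 0.05. The method was tested on simulated data. Lists of 2357 genes in 47 groups, 2003 of them measured, and the compared arrays were chosen with earlier results of these data known. Named genes were the 15 largest rises and falls without overlap, at most 6 members of each list by p, and grb10a, and opn1mw1, opn1lw2, opn1sw1, opn1sw2, insra and insrb were added after their values were seen. The text gives only part of the named genes. Precision is set by 3 pools per group. Levels of different genes are not compared. Promoter motifs that had been planned were not analysed here. Alternatives are given in the closing section.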

Additional observations from a re-analysis of the deposited data

Results flagged for a closer look

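The age step of the controls differed from that of the grb10a knockdown for 4004 genes by the limma test of the difference between the steps (control minus knockdown, adjusted p under 0.05). The genes named in the text that belong to these are given below with that difference on the log2 scale. Most of them were named by their control step, whose arrays also enter the difference, and that choice favours a difference. No group had enough arrays for a test of single far-off arrays, and the differences are reported without an explanation.

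More negative in controls, by ribosome and translation, were -3.26 for pprc1, -3.24 for abcf2a, -2.27 for fbl, -2.26 for imp4, -1.80 for mak16, -1.36 for nop56, -2.32 for qars1, -1.89 for eif4e1c and -1.36 for kars1. Replication and nucleotide genes gave -2.67 for odc1, -2.35 for hells, -2.06 for srm, -1.89 for mcm6, -1.86 for mcm4, -1.67 for fen1, -1.45 for shmt1, -1.29 for lig1 and -0.91 for ahcy. Folding and sterol genes gave -3.19 for manf, -2.73 for dnajc21, -2.51 for hmgcs1, -2.21 for hyou1, -2.19 for hmgcra, -2.16 for cyp51, -1.94 for hsp90b1, -1.68 for dnaja1 and -1.18 for ptges3a. Proteasome subunits had -1.84 for psmd11b, -1.35 for psmd12 and -1.11 for psmc4. The progenitor factor gene sox11a had -0.46. Surface and blood genes had -3.02 for rhcga, -1.64 for gch2, -1.601 for evpla, -1.36 for hbae3, -1.298 for ppl and -0.72 for scel.

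More positive in controls, by nutrient and insulin signalling, were 2.64 for bbc3, 2.46 for sesn1, 2.16 for pdpk1a, 1.82 for abca1a, 1.82 for tp53inp1, 1.81 for foxo4, 1.78 for txnipa, 1.76 for igf2b, 1.34 for bnip3lb, 1.23 for txnipb, 1.09 for igf2a, 1.09 for insrb, 0.77 for insra, 0.70 for igfbp7 and 0.57 for grb10a. Immune and plasma genes gave 1.43 for stat2, 1.34 for mpeg1.2, 1.17 for ccl25a, 1.14 for ifi44g, 1.13 for f10 and 1.04 for ifi30a. The lectin gene lgals4 had 1.61 and the ferritin gene fth1a 0.60. Eye, brain, clock and surface genes had 1.52 for hlfa, 1.25 for rhol, 1.14 for opn1mw4, 1.098 for tmprss13a, 0.87 for eomesa, 0.83 for syn2b, 0.80 for guca1b, 0.70 for opn4a and 0.46 for krt5, digestive protease genes 1.83 for ela3l and 1.41 for ela2, and matrix enzymes 0.74 for mmp14b and 0.72 for mmp9.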

How the results depend on the processing

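The 2384 calls of the control step became 2374 to 3015 under an intensity trend with robust spread, dim genes left out, a further quantile normalization, centring, the mean of a gene's probe sets, array weights and the replicate block, with 2091 of the 2384 shared under centring and 1976 with dim genes left out. It gave 4804 calls when all probe sets were tested one by one, where more features were tested, and 996 with only the compared arrays, where the spread rested on fewer samples. Leaving out 1 array gave 1289 to 2581 calls in controls (1289 without 20 dpf replicate 1, 1380 without 20 dpf replicate 3, 1416 without 15 dpf replicate 1), 3189 to 4403 of 4893 in the knockdown, lowest without 15 dpf replicate 1, and 3015 to 4377 of 4004 for the difference, which was 6717 with all probe sets. Blocking on the replicate number gave 2450 calls in controls, 4981 in the knockdown and 4065 for the difference. Same-numbered control arrays of the 2 ages deviated from their group means with correlations of -0.13, -0.08 and 0.05. Differently numbered arrays gave -0.09 to 0.16. With 3 arrays per group these values cannot show whether same-numbered pools had a common origin. Among 146 genes of the text, 142 were called and 126 of these kept the call under every alternative run. The text gives only part of the named genes, so this share does not describe all calls. With only the compared arrays, 9 calls of text genes were lost, against 65 over all named genes. Over all genes, 927 of the 2384 calls were kept with only the compared arrays. opn1lw2, not called, was -0.10, and 0.044 with array weights and -0.30 to 0.086 with 1 array left out. Over the gene lists, 910 recomputed counts of risen or fallen members included 202 lower and 44 higher by over 1.5 times, and 24 of 658 recomputed medians took the other sign, the largest of them 0.145 in size as reported. Precision is limited by 3 pools per age.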

Other observations

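Several genes outside the groups above changed in the control step. The lectin gene lgals4 measured 7.34, 7.43 and 7.69 in the 20 dpf pools, against 4.88, 4.64 and 5.05 in the 15 dpf pools, a rise of 2.63 (SE 0.19, adjusted p = 9.51e-10). The serine protease gene prss60.1 had 8.15, 7.49 and 7.72 in the 20 dpf pools, against 5.01, 5.94 and 6.15 in the 15 dpf pools and rose by 2.08 (SE 0.31, adjusted p = 7.71e-05). tgm1l3, a transglutaminase that cross-links proteins, rose by 1.80 (SE 0.30), and its control means at 5, 10 and 30 dpf were 8.84, 6.09 and 10.29. The coagulation factor gene f10 measured 7.87 ± 0.12 at 20 dpf, against 6.57 ± 0.08 at 15 dpf, a rise of 1.302 (SE 0.17), and the copper-binding plasma protein gene cp rose by 1.04 (SE 0.19), the 2 rises among 56 liver genes. gch2, which starts the synthesis of the pteridine pigments of yellow pigment cells, measured 6.005, 5.13 and 5.58 in the 20 dpf pools, against 6.31, 7.03 and 7.08 in the 15 dpf pools. It fell by 1.24 (SE 0.23, adjusted p = 0.001), the single call among 40 pigment genes (2.5% fallen, against 4.03% of all genes).

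Proteasome genes had 6 falls among 42 (14.3%, against 4.03% of all genes) and 1 rise, which was psme2. The regulatory lid subunits psmd11b and psmd12 and the ATPase subunit psmc4 fell, with -0.80 (SE 0.14), -0.62 (SE 0.12) and -0.58 (SE 0.13). In glycolysis 4 of 40 genes rose (10%, against 8.34% of all genes), 2 without 15 dpf replicate 1 or 2 or 20 dpf replicate 1 or 3 and 1 with only the compared arrays. Among them gapdh measured 10.45 ± 0.20 at 20 dpf, against 9.71 ± 0.12 at 15 dpf, a rise of 0.75 (SE 0.16). The interferon-response genes stat2 and ifi44g rose by 0.87 (SE 0.15) and 0.93 (SE 0.15). In that list 5 of 35 rose (14.3%, against 8.34% of all genes), 3 without 15 dpf replicate 1 or 20 dpf replicate 2. Of the 35 genes 24 lay under 6.06 in both group means. The heavy ferritin chain fth1a rose by 0.69 (SE 0.14).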
